A study of Mus musculus with 6 samples.

Results

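The 2 untreated libraries of TRAMP-C2 cells were analysed here, out of 6 libraries in the series, and they were chosen by their labels, which name the control agent and no drug. TRAMP-C2 is a cell line grown from a prostate tumour of a C57BL/6 TRAMP mouse, a strain in which the probasin promoter, active in prostate epithelium, drives the SV40 T antigens. The labels give the cells as male and the time as 24 h, and the other 4 libraries, not used here, came from the same line after 24 h with 2 µM oxaliplatin or 2 µM cisplatin. Both control cultures were grown in DMEM with serum, a serum substitute, bovine insulin and the androgen precursor dehydroisoandrosterone, so the levels below are those of cells under hormone and insulin. It is 1 line from 1 tumour, nothing in the labels says whether the 2 replicates were separate cultures, and no other cell type stands beside them, so every level is a description of this line.

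Gene levels are given per library, replicate 1 first and replicate 2 second. CPM is a gene's count per 1000000 counts of its library. TPM divides the count by the length of the gene's merged exons before the same scaling, so it can be compared between genes, and ranks are by mean TPM over the 21918 protein-coding genes of the annotation. A gene was called expressed at 1 CPM or more in both libraries, which was about 21.3 and 22.4 counts. A count of 0 allows up to 0.141 and 0.134 CPM, taking 3 counts as the floor, and this covers counting error only. One gene was called higher than another only where the ranges of their 2 libraries did not overlap in TPM, and no test was run, since the 2 libraries form a single group.

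The libraries held 21345312 and 22408490 counts. Of 54446 genes in the table, 12580 were expressed, among them 11491 protein-coding genes, or 52.4% of the protein-coding annotation. That share is the background for every list below, as is the median over all protein-coding genes of 1.71 and 1.75 TPM. Replicate differences were small beside differences between genes. The median absolute log2 ratio between the 2 libraries was 0.17 for the 2473 protein-coding genes of 1 to 10 CPM, 0.08 for the 6929 of 10 to 100 CPM and 0.06 for the 2129 of 100 to 1000 CPM. The male label was checked on sex-linked genes. Ddx3y, an RNA helicase gene of the Y chromosome, was at 53.3 and 57.3 TPM, while Xist, the RNA that silences 1 X chromosome in female cells, had 4 and 0 counts.

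Carcinomas arise from epithelium, whose cells are joined by E-cadherin, claudins and desmosomes and filled with keratin filaments. Mesenchymal cells such as fibroblasts instead move singly, use vimentin filaments and N-cadherin, and secrete collagens and fibronectin. Regulators of the Snai, Zeb and Twist families repress epithelial genes and favour the mesenchymal state, and carcinoma cells can shift along this axis. In the normal prostate, secretory luminal cells carry Krt8 and Krt18, basal cells carry Krt5, Krt14 and Trp63, and the surrounding stroma holds fibroblasts and smooth muscle.

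The RNA of these cells was led by the machinery of translation and respiration, and genes of matrix and cytoskeleton stood among the 100 highest too. Among the 100 highest protein-coding genes, 31 encoded cytosolic ribosomal proteins, 9 were of the mitochondrial genome, 4 were translation factors, 5 were glycolytic enzymes, 5 were actins or tubulins, 5 were heat shock chaperones and 2 were collagens. The 100 highest genes of any biotype took 34.4% and 34.4% of the TPM in replicates 1 and 2. Ribosomal protein genes alone took 9.58% and 8.93%, mitochondrial genes 5.39% and 5.95% and translation factors 2.704% and 2.69%. Collagen genes are long, so their share depended on the scale, at 1.95% and 1.88% of the counts and 0.677% and 0.659% of the TPM.

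The single highest protein-coding gene was mt-Co1, a subunit of cytochrome c oxidase, at 12399.6 and 14024 TPM. Eef1a1, which brings aminoacyl-tRNA to the ribosome, followed at 12059 and 12016 TPM and took the most counts of any protein-coding gene, 10749 and 10558 CPM. Rplp1 and Rplp0, which form the stalk of the large ribosomal subunit, ranked 3 and 8, and Rplp0 was at 5402 and 5087 TPM. Lgals1, the secreted sugar-binding protein galectin-1, ranked 5 at 8037 and 7885 TPM, the highest gene outside translation and mitochondria. Hsp90ab1, the constitutive cytosolic Hsp90, ranked 9 at 4169 and 4212 TPM. Calcium-binding S100 proteins also stood near the top. S100a6 was at 3885 and 3565 TPM, S100a11 at 3635 and 3698 TPM, and S100a4, long used as a fibroblast and mesenchymal marker, ranked 25 at 2752 and 2696 TPM. Ptma, the nuclear protein prothymosin alpha, ranked 15 at 3701 and 3361 TPM, and Ftl1, the ferritin light chain that stores iron, ranked 19 at 3376 and 3287 TPM. The remainder of the 20 highest were mt-Atp8, mt-Nd1, mt-Cytb, mt-Nd4 and mt-Nd2 of the mitochondrial genome, the ribosomal protein genes Rpl41, Rps3a1, Rpl23a and Rpl8, and the tubulin gene Tuba1b at 3448 and 3336 TPM.

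**Figure D1:**
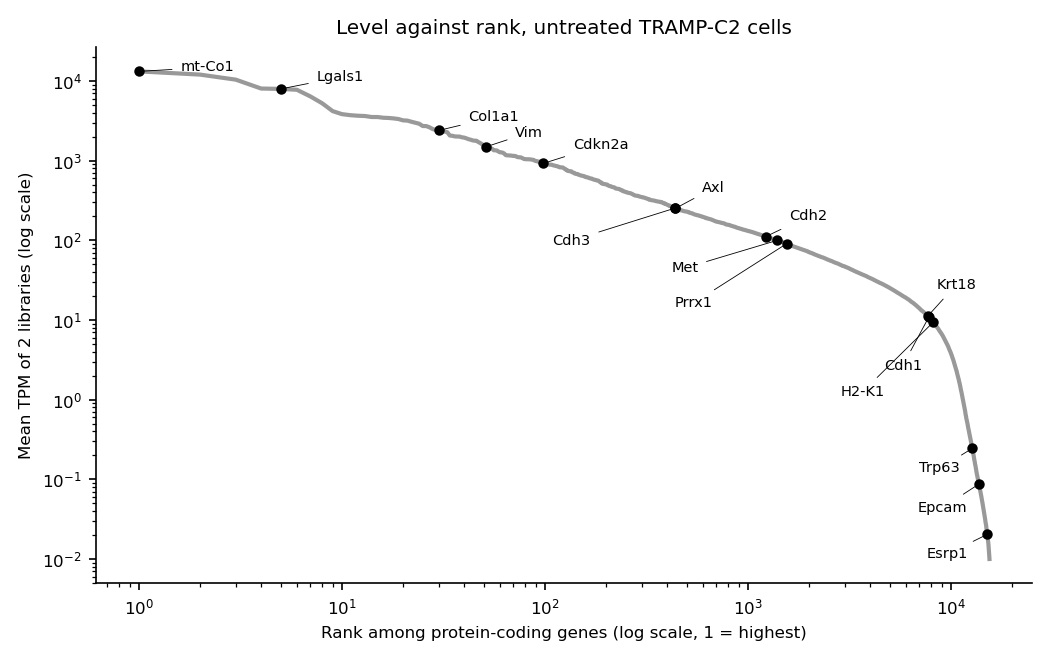
Mean TPM of the 2 untreated libraries against rank among protein-coding genes, both on log axes, with named genes as black points. Lgals1, Col1a1, Vim and Cdkn2a lie within the first 100 ranks, the cadherin genes Cdh3 and Cdh2 lie far above Cdh1, and Trp63, Epcam and Esrp1 lie on the steep tail below 1 TPM.

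Promoter windows of these genes were read for core motifs. The windows are those of RefSeq on GRCm38.p6 and run from 250 bases before each annotated start to 50 bases from it, and 59 of the 100 highest protein-coding genes and 63 of 84 ribosomal protein genes had 1 or more. The GC box GGGCGG, on either strand, was in 67.6% of windows of the 100 highest genes and 61.3% of those of ribosomal protein genes, against 35.7% of all windows. All windows cover 27025 symbols, expressed or not. The share was 60.9% in the epithelial list read below, most of whose genes were near the floor, so it was not particular to high genes. The TATA motif TATAAA was in 16.2% and 9.33%, against 13.6% of all. Ribosomal protein mRNAs are known to begin with a C followed by pyrimidines, through which their translation is controlled. A C with 4 pyrimidines after it stood at the annotated start in 14 of 75 ribosomal protein windows, or 18.7%, against 2.51% of all. The CCAAT box was in 30.7% of ribosomal protein windows and 37.4% of all, and the CArG box that Srf binds in 4.05% of windows of the 100 highest genes and 1.63% of all. Rplp0 is shown as a ribosomal protein promoter, from 170 bases before the start to 20 from it, with its CCAAT boxes in capitals.
Rplp0, chr5:115559297-115559486, plus strand: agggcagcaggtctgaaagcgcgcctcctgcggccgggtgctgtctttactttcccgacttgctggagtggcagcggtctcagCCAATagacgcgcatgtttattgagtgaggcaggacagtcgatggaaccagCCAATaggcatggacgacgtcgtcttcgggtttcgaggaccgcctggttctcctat
Its 2 CCAAT boxes lay 87 and 36 bases before the start.

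Part of the top of this list depended on how reads shared with pseudogenes were divided. Pseudogenes took 4.12% and 4.08% of the counts but 20.1% and 20.1% of the TPM, a scale that divides by exon length. Of 275 pseudogenes with a mean of 100 counts or more, 259 matched a protein-coding transcript at 95% identity or more over at least 50% of their length. The 6 that matched mitochondrial genes took 31.7% and 33.4% of all pseudogene counts. They held 1.31% and 1.36% of all counts, beside 1.90% and 2.11% for the mitochondrial genome itself. The mitochondrial share of TPM given above leaves them out. For mt-Co2, only 0.917% and 1.71% of the summed counts of gene and pseudogene stood under the gene's own name, and for mt-Co3 1.01% and 1.81%. With its pseudogene added, mt-Co2 would move from rank 493 to rank 1 at 18793 and 19922 TPM, and mt-Co3 from rank 655 to rank 4. Among ribosomal protein genes the same held for Rpl12, which kept 4.14% and 3.46% and would move from rank 3536 to rank 114. Levels of single mitochondrial and ribosomal protein genes, and the shares of both classes, are therefore uncertain in this table. By contrast, Vim, Col1a1 and Lgals1 had whole counts in both libraries. Counts of Actb, Sparc and Fn1 were not whole in at least 1 library, so some of their reads were shared.

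Mesenchymal genes were at high levels and most epithelial genes were near the floor. All 31 mesenchymal genes were expressed, with a median of 104 and 111 TPM, against 6 of 28 epithelial adhesion and polarity genes, with a median of 0.107 and 0.104 TPM. The difference between the medians of log2(TPM + 1) was 6.56 and 6.66. Both lists were chosen with earlier results of these data known, so these counts and this difference describe the listed genes only. Cdh3, at 252 and 255 TPM, and Krt19, both genes of epithelium, were not members of the epithelial list. Col1a1, the main chain of type I collagen, ranked 30 at 2491 and 2308 TPM and took 5845 and 5339.7 CPM. Sparc, a collagen-binding matrix protein, ranked 35 at 2038 and 2069 TPM. Vim, the filament protein vimentin, ranked 51 at 1541 and 1433 TPM, which was 135 and 130.1 times the level of Krt18, a luminal keratin. Another keratin of the luminal list, Krt19, was higher than Krt18, at 152 and 134 TPM. Fn1, fibronectin, was at 1085 and 1188 TPM, and Lox, the enzyme that crosslinks collagen, was at 962 and 993 TPM.

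The repressors of the epithelial programme were all expressed, at levels well below the structural genes. Prrx1, a homeobox regulator of limb and stromal mesenchyme, was the highest of the regulators at 87.6 and 93.8 TPM. Snai2 was at 52.6 and 57.1 TPM and Snai1 at 48.2 and 46.01 TPM, ranges that did not overlap. Twist1 was at 39.2 and 36.9 TPM, Zeb1 at 17.4 and 18.8 TPM and Zeb2 at 4.21 and 4.69 TPM, the lowest member of the mesenchymal list.

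Most epithelial genes were at or near the detection floor. Epcam, the epithelial adhesion molecule, had 1 and 2 counts. Esrp1, which directs epithelial splicing, had 1 and 1 counts, and the claudin gene Cldn4, the transcription factor gene Elf3 and the protease gene St14 had 0 counts in both libraries. In all, 16 of the 28 had 3 counts or fewer in each library. The exceptions were F11r, the junctional adhesion molecule JAM-A, at 123 and 119.6 TPM, and Jup, plakoglobin, at 59.98 and 54.1 TPM. Cdh1, E-cadherin, was low but present at 10.2 and 11.5 TPM, as were Klf5 at 7.18 and 7.74 TPM and Esrp2, the second epithelial splicing factor, at 6.27 and 6.996 TPM. Dsp, the desmosome protein desmoplakin, only just passed at 1.36 and 1.65 CPM.

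Among the classical cadherins the order was Cdh3, Cdh2, Cdh11, Cdh1. Cdh3, P-cadherin, which in normal prostate marks basal epithelium, was at 252 and 255 TPM, 2.29 and 2.26 times Cdh2. Cdh2, N-cadherin, was at 110.0 and 113 TPM, 10.8 and 9.79 times Cdh1. Cdh3 alone made up 64.1% and 63.4% of the summed TPM of the 8 cadherin genes listed. The highest cadherin gene was thus an epithelial one, and Cdh3 and Jup, which bind each other in junctions, were both expressed.

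**Figure D2:**
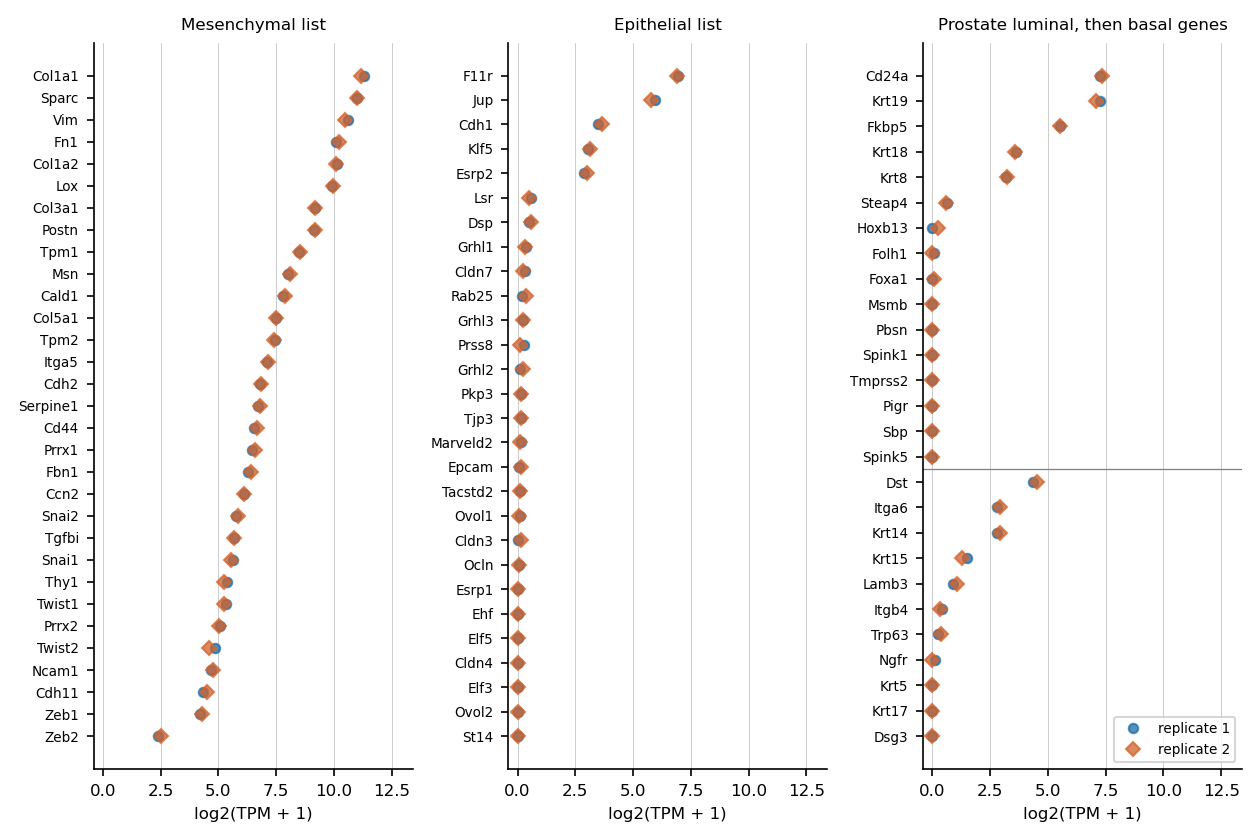
Level as log2(TPM + 1) of every gene of the mesenchymal and epithelial lists and of genes of the prostate luminal and basal lists, with a circle for replicate 1 and a diamond for replicate 2. Every mesenchymal gene lies above 0 and most lie between 5 and 11, while all but 5 epithelial genes lie below 1.

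Promoter windows were examined for the genes of both lists because the Snai, Zeb and Twist repressors bind E boxes. The E box CACCTG, on either strand, was in 18 of 23 windows of epithelial genes and in 2 of 25 windows of mesenchymal genes, against 20.2% of all 32851 windows. By gene, 14 of 17 epithelial genes with a window held it, and 2 of 20 mesenchymal genes, namely Snai1 and Sparc. The 3 epithelial genes without it were Grhl1, Jup and Ovol2, and F11r and Dsp, which were expressed, held 1 each. The share of windows with a GC box, GGGCGG, was alike in the lists, at 60.9% and 64%, against 35.7% of all windows. The E box was added to the motifs after levels were seen, and a match is a description of letters, not a site shown to be bound. Whether the motif bears on the levels was not tested.

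The windows of 2 mesenchymal genes that were expressed and 2 epithelial genes at or near 0 were picked as examples. Each is printed from 170 bases before the start to 20 from it. They do not stand for all genes, since F11r, Dsp, Snai1 and Sparc were expressed and held the E box. Grhl1 and Ovol2 were not expressed and lacked it. Capitals mark the E box CACCTG, the GC box GGGCGG, the CCAAT box and the TATA motif TATAAA, each on either strand.
Vim, chr2:13574141-13574330, plus strand: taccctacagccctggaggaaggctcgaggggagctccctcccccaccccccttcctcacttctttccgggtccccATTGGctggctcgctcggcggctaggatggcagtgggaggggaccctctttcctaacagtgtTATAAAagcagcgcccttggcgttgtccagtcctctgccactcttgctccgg
Twist1, chr12:33957501-33957690, plus strand: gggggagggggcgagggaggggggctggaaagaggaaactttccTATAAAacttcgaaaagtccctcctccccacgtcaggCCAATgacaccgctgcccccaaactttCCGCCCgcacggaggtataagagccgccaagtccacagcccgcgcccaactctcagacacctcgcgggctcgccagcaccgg
Epcam, chr17:87635809-87635998, plus strand: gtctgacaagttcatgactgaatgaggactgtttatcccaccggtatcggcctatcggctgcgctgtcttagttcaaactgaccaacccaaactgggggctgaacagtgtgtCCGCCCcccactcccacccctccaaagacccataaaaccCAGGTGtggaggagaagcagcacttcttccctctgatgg
Cldn4, chr5:134946915-134947104, minus strand: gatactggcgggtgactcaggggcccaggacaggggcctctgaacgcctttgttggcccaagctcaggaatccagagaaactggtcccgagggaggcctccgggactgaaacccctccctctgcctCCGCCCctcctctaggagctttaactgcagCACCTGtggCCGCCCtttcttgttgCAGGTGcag
Vim held a TATA motif 32 bases before its start and a CCAAT box on the opposite strand, and neither Vim nor Twist1 held an E box in the whole window. Epcam held 2 E boxes in the whole window, 187 and 19 bases before the start, of which the nearer lies in the span shown, and Cldn4 held 2, on either side of the start.

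Of the prostate luminal list, 6 of 18 genes were expressed, a share below that of all protein-coding genes. Fkbp5, a chaperone of steroid receptors that androgen and glucocorticoid both induce, was at 45.1 and 44.5 TPM. Pbsn, the source of the TRAMP promoter, had 0 counts in both libraries, and so had Msmb, Tmprss2 and Pigr. Foxa1, the pioneer factor of luminal cells, had 0 and 1 counts and Hoxb13 had 0 and 3.

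Keratins were expressed unevenly. Krt19 was the highest of the listed keratins at 152 and 134 TPM, 13.3 and 12.2 times Krt18. Krt18 and Krt8, which pair in simple epithelium, were at 11.4 and 11.01 and 8.097 and 8.28 TPM. Cd24a, a surface glycoprotein of luminal cells that is also made by many immature cells, was at 151 and 161 TPM. Of the prostate basal list, 4 of 11 genes were expressed, a share of 36.4% beside 33.3% of the luminal list. Dst, whose epithelial form links keratin filaments to hemidesmosomes, was at 19.6 and 22.3 TPM. A gene-level count does not separate that form from the others. Itga6, the laminin-binding integrin chain, was at 5.88 and 6.62 TPM and Lamb3 at 0.852 and 1.07 TPM. Krt5 and Krt17 had 0 counts in both libraries, Trp63, the master regulator of basal cells, was at 0.203 and 0.287 TPM, and Krt14 was at 5.87 and 6.58 TPM with reads shared with other genes.

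Late TRAMP tumours can become neuroendocrine, so that list was read too. Only 3 of its 16 genes were expressed. Foxa2, a forkhead factor found in TRAMP neuroendocrine tumours and in early prostate buds, was at 36.3 and 33.6 TPM, and Ncam1 was at 24.9 and 25.9 TPM. Insm1 and Neurod1, which drive neuroendocrine fate, had 0 counts, and none of the 7 granule genes passed, with Chga at 0 and 1 counts and Syp at 0.511 and 0.482 TPM. Foxa2 was thus expressed without Foxa1 and without the neuroendocrine granule genes.

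Myofibroblast and fibroblast genes were common. Acta2, smooth muscle actin, was at 696 and 672 TPM and made up 10.96% and 10.9% of the summed TPM of the actin genes, with some reads shared. Tagln was at 283 and 286 TPM and Cnn1 at 30.9 and 33.5 TPM, both actin-binding proteins of contractile cells. The later smooth muscle genes were low, with Myh11 at 0.0866 and 0.184 TPM and Myocd, the myocardin coactivator, at 1 and 2 counts. Of the fibroblast list, 14 of 15 genes were expressed. Fbln2, a matrix fibulin, was at 715 and 704 TPM, Dpt, dermatopontin, at 327 and 307 TPM and Cd34, a glycoprotein of adventitial fibroblasts and progenitors, at 178 and 181 TPM. The 9 matrix genes of the list were uneven, with a median of 2.84 and 2.9998 TPM, the level of Lum. All protein-coding genes had a median of 1.71 and 1.75 TPM. Below Fbln2 and Dpt came Dcn at 75.5 and 80.9 TPM and Fbln1 at 24.4 and 23.7 TPM. Col15a1 was at 2.35 and 2.77 TPM and Mfap5 at 1.28 and 1.02 TPM. Col14a1 was at 0.411 and 0.415 TPM, and Pi16 had 3 and 4 counts. Pdgfrb exceeded Pdgfra, at 53.99 and 56.1 against 13.3 and 14.2 TPM, and Fap, a marker of activated fibroblasts, was at 0.787 and 1.14 TPM.

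Markers of other cells that a tumour-derived culture could hold were nearly absent. Of the 11 leukocyte markers, 6 had 0 counts in both libraries, among them Ptprc, Cd3e, Adgre1, Itgam and Nkg7, and only Cd68, a lysosomal protein, was expressed, at 4.38 and 3.32 TPM. The endothelial markers Cdh5 and Cldn5 had 0 counts, and only Flt1 was expressed, at 3.64 and 3.98 TPM. Sox10 and Foxd3 of the neural crest had 0 counts, as did Myod1 and Myog of skeletal muscle, where no listed gene was expressed. In bulk RNA, fewer cells of a type and less RNA per cell cannot be told apart, and this holds for every level given here.

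The extracellular matrix was the most broadly expressed of the secreted classes, with 61 of 73 genes expressed. Beside Col1a1 and Sparc, Bgn, the proteoglycan biglycan, was at 1237 and 1314 TPM. Col6a1, a chain of the beaded collagen VI, was at 873 and 873 TPM, above Col3a1 at 575 and 577 TPM. Postn, periostin, which is made by activated stroma, was at 556 and 575 TPM, and Efemp1, a fibulin of elastic fibres, was at 638 and 665 TPM. Eln, tropoelastin itself, had 2 and 3 counts. The basement membrane was partly represented, with Col4a1 at 239 and 236 TPM and Nid1 at 199 and 220.1 TPM. Its laminin beta chain Lamb2, at 61.2 and 59.5 TPM, was slightly above Lamb1, at 57.8 and 59.05 TPM. The chains of the epithelial laminin-332 were low, with Lama3 at 0.159 and 0.118 TPM.

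Matrix-degrading enzymes were expressed beside 2 inhibitors with higher levels. Mmp14, the membrane-anchored collagenase, was the highest matrix metalloproteinase at 223 and 231 TPM, and Mmp13, collagenase 3, was at 114 and 121 TPM. Mmp2, the gelatinase that Mmp14 activates, was lower at 25.8 and 28.8 TPM, Mmp9 was at 0.407 and 0.394 TPM, and Mmp7, an epithelial enzyme, had 0 counts. The inhibitor Timp2, which Mmp14 uses to capture Mmp2, was at 557 and 571 TPM, and Timp1 was at 316 and 322 TPM. Among the 5 collagen crosslinking genes of the Lox family, all were expressed, with Loxl2 at 214 and 226 TPM next to Lox.

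Of 55 receptor tyrosine kinases, 33 were expressed, or 60%, beside 52.4% of all protein-coding genes. Axl, the receptor for Gas6, was the highest at 248 and 255 TPM, rank 439, 2.59 and 2.44 times Met. Its relatives were low, with Tyro3 at 7.801 and 7.07 TPM and Mertk at 1.36 and 1.197 TPM, so Axl led its family. Gas6, its ligand, was expressed in the same cells at 22.4 and 19.5 TPM. Met, the receptor for hepatocyte growth factor, was at 95.8 and 105 TPM, whereas Hgf was at 1.003 and 1.09 TPM. The collagen receptors Ddr1 at 106 and 99.3 TPM and Ddr2 at 79.8 and 88.1 TPM were both high in cells whose collagen levels were high. Egfr was at 58.6 and 63.3 TPM and Erbb2 at 25.6 and 25.2 TPM, while Erbb3 was at 0.915 and 0.863 TPM and Erbb4 had 0 counts. Igf1r, the receptor through which high insulin can also signal, was at 9.96 and 11.02 TPM and Insr at 6.76 and 8.22 TPM. None of the 3 neurotrophin receptors of the Ntrk family passed, and Kit had 0 and 3 counts.

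Receptors for the TGF-beta superfamily were mostly expressed, 11 of 15. Bmpr1a, a type I receptor for bone morphogenetic proteins, was the highest at 65.7 and 73.9 TPM. Tgfbr2 was at 29.3 and 32.7 TPM and Tgfbr1 at 17.5 and 18.99 TPM, so both chains that bind TGF-beta were present. In the Hedgehog pathway Smo, the transducer, was at 89.8 and 88.8 TPM, but the target genes Ptch1 at 4.47 and 4.62 TPM and Gli1 at 0.4197 and 0.304 TPM were low. Fzd2 was the highest Wnt receptor at 68.7 and 63.1 TPM, and Notch2 the highest Notch receptor at 46.9 and 50.9 TPM, with Notch1 at 1.91 and 1.88 TPM.

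Among nuclear receptors, those for thyroid hormone and retinoic acid stood above the estrogen and progesterone receptors. Thra was at 72.98 and 71.4 TPM, Rarg at 56.7 and 56.96 TPM and Rara at 38.3 and 36.3 TPM. The glucocorticoid receptor Nr3c1 was at 33.9 and 36.8 TPM. Esr1 was at 0.815 and 0.882 TPM, and Pgr and Esr2 had 3 counts or fewer in each library. Pparg, the lipid-sensing receptor of adipocytes, was at 16.2 and 15.6 TPM.

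Receptors for inflammatory cytokines were present, while those that guide leukocytes were not. Tnfrsf1a, the main receptor for TNF, was at 151 and 147 TPM and Ltbr, the lymphotoxin receptor, at 108 and 104 TPM. All 5 interferon receptor genes were expressed, with Ifngr1 at 40.1 and 39.7 TPM, Ifngr2 at 65.9 and 66.05 TPM, Ifnar1 at 49.9 and 50.2 TPM and Ifnar2 at 41.6 and 42.7 TPM. Fas, the death receptor, was at 7.37 and 8.04 TPM. Of 15 chemokine receptors only Ackr3 passed, at 1.72 and 2.53 TPM, and Cxcr4 had 1 and 0 counts. Integrins were led by Itgb1, the shared beta chain, at 701 and 736 TPM, with Itga5, its partner for fibronectin, the highest alpha chain at 138 and 141 TPM. Itgb4 and Itgb6, the epithelial beta chains, were at 0.355 and 0.253 and 0.0184 and 0 TPM.

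**Figure D3:**
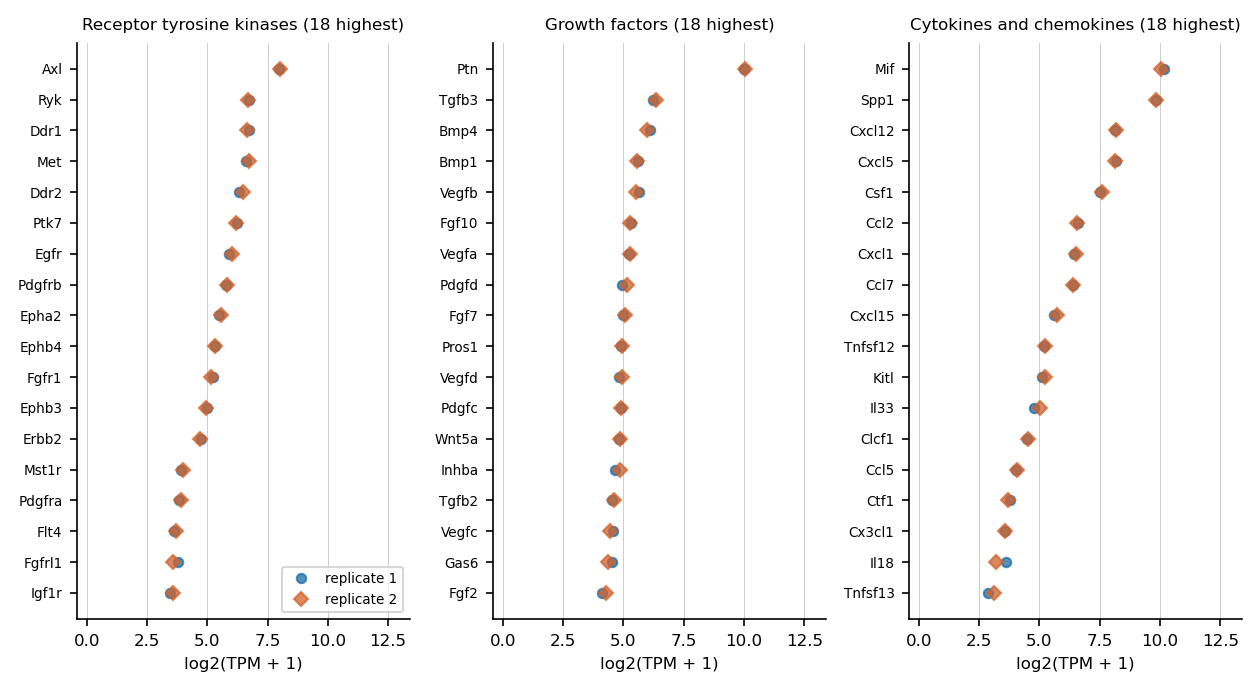
Level as log2(TPM + 1) of the 18 highest receptor tyrosine kinases, growth factors, and cytokines and chemokines, with a circle for replicate 1 and a diamond for replicate 2. Axl, Ptn and Mif head the panels, and both libraries lie close together for nearly all genes shown.

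Among 121 growth factor genes, 44 were expressed. Ptn, the heparin-binding factor pleiotrophin, stood far above the rest at 1031 and 1060.0 TPM, rank 80, whereas its only close relative Mdk, midkine, was at 0.396 and 0.383 TPM. Tgfb3 was the highest TGF-beta at 74.7 and 81.3 TPM, above Tgfb2 at 21.8 and 23.8 TPM and Tgfb1 at 12.53 and 11.4 TPM. Bmp4, which restrains ductal growth in the developing prostate, was at 67.1 and 62.2 TPM. Fgf10 and Fgf7, signals from stroma to prostate epithelium, were at 38.7 and 37.5 TPM and 30.3 and 32.9 TPM. Their receptor gene Fgfr2 was at 6.401 and 6.73 TPM, below Fgfr1 at 36.7 and 34.1 TPM. A gene-level count does not separate the splice forms of Fgfr2. Vegfa was at 36.8 and 37.5 TPM, Wnt5a, the highest Wnt, at 27.6 and 28.5 TPM, and Shh, the epithelial Hedgehog ligand, had 0 counts.

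Several secreted antagonists stood above every growth factor on the list other than Ptn. Fstl1, a follistatin-like glycoprotein, was at 434 and 442 TPM, Sfrp2, a soluble Wnt-binding protein, at 404 and 409.6 TPM and Grem1, which binds bone morphogenetic proteins, at 154 and 155 TPM. Grem1 and Bmp4, an antagonist and a ligand it binds, were thus both expressed, with Grem1 higher. Igfbp7 was at 317 and 297 TPM and Ccn1, a target of Yap and Srf, at 178 and 189.7 TPM. Dkk1, a Wnt antagonist, had 1 and 1 counts, and Nog, noggin, had 1 and 0.

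Of 87 cytokine and chemokine genes, 28 were expressed, and the highest chemokines were those that attract progenitors, neutrophils and monocytes. Mif, macrophage migration inhibitory factor, was at 1148 and 1054 TPM with shared reads, and Spp1, osteopontin, at 919 and 905 TPM. Cxcl12, the ligand of Cxcr4, was at 279.8 and 287 TPM and Cxcl5, which attracts neutrophils, at 288 and 277 TPM, with overlapping ranges. Csf1, the macrophage growth factor, was at 183 and 195 TPM, Ccl2, which attracts monocytes, at 94.99 and 93.3 TPM and Ccl5, which attracts T cells, at 15.2 and 15.96 TPM. Cxcl9 and Cxcl11, which interferon-gamma induces to attract T cells, had 0 counts, while Cxcl10 was at 5.64 and 4.55 TPM. The classical inflammatory cytokines were at the floor. Tnf and Il1b had 0 counts, Il6 had 1 and 4 counts, Ifnb1 had 0 and 1, and none of the 7 interferon genes passed.

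HOX genes encode positional identity along the body, and higher paralogue numbers mark more posterior tissue. Of 39 HOX genes, 21 were expressed, 10 of 11 in the Hoxa cluster, 8 of 10 in Hoxb, 0 of 9 in Hoxc and 3 of 9 in Hoxd. Hoxa11 was the highest at 119 and 117 TPM, 1.87 and 1.84 times Hoxa10, which was at 63.6 and 63.3 TPM. Hoxa13, required in the urogenital sinus, was at 12.6 and 13.6 TPM. Hoxb7 led its cluster at 26.6 and 26.2 TPM, and Hoxb13, the prostate paralogue, was at the floor while Hoxb9, which precedes it in the cluster, was at 14.9 and 15.2 TPM. The Hoxc cluster held 6 genes with 0 counts and 3 with 3 counts or fewer. Hoxd13 was at 1.85 and 1.73 TPM, and Hoxd8 at 7.78 and 8.81 TPM was the highest of its cluster.

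**Figure D4:**
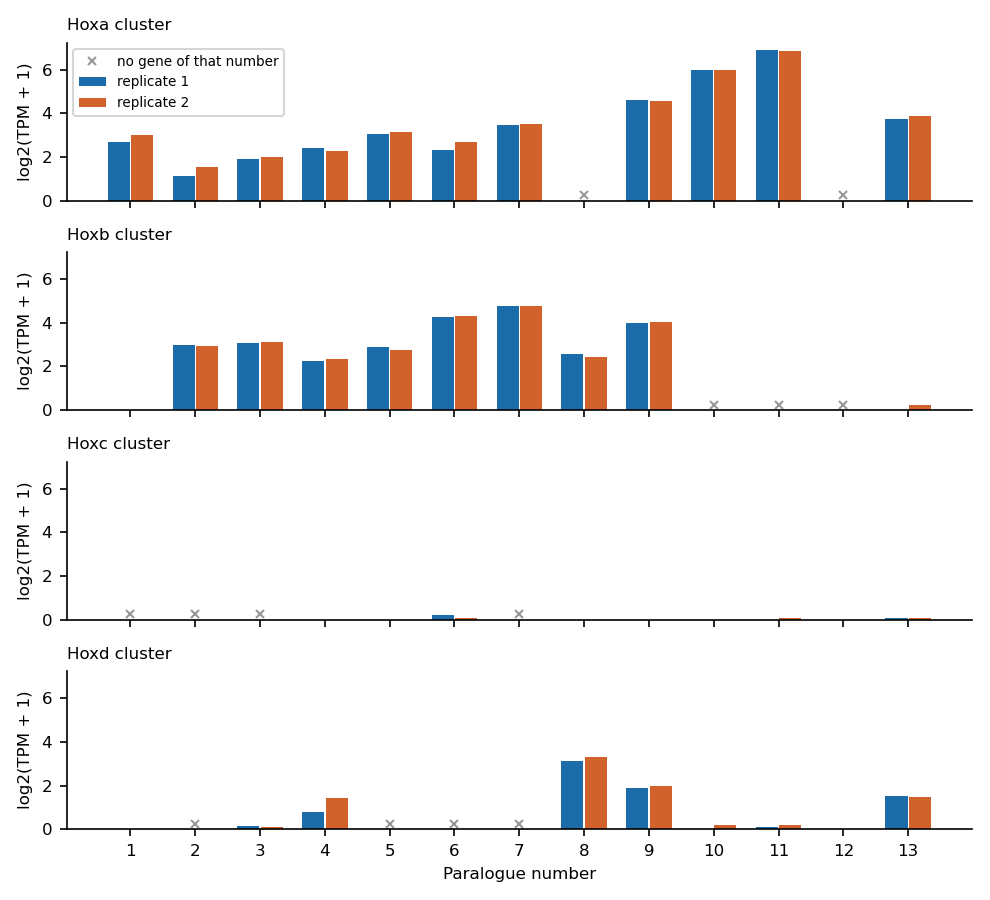
Level as log2(TPM + 1) of the HOX genes by paralogue number, with 1 panel per cluster and bars for replicates 1 and 2. Crosses mark numbers for which the cluster has no gene, and the Hoxc panel is nearly empty while Hoxa rises toward Hoxa11.

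Other developmental regulators were a mixture, with 65 of 141 expressed. Id3 and Id1, inhibitors of basic helix-loop-helix factors that bone morphogenetic proteins induce, were the highest at 275 and 237 TPM and 146 and 115 TPM. Gata6 was at 67.8 and 66.4 TPM and Gata4 at 21.8 and 21.1 TPM, both known from heart, gut and gonad. Wt1 and Osr1, regulators of urogenital mesoderm, were at 36.8 and 39.5 TPM and 35.96 and 37.2 TPM. Emx2, of forebrain and urogenital epithelium, was at 14.99 and 15.1 TPM. Sox2, Pax2 and Pax6 had 0 counts, and Sox9, which is needed for prostate budding, was at 7.48 and 6.58 TPM.

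Signal-driven and general factors were mostly expressed, 78 of 91. Atf4, effector of the integrated stress response, was at 431 and 419 TPM, and its target Ddit3, which encodes CHOP, was at 55.8 and 56.2 TPM. Hmga1 was at 406 and 403 TPM and Hmga2, an embryonic chromatin protein, at 41.5 and 44.2 TPM. Yap1 was at 146 and 154 TPM and Ctnnb1, beta-catenin, at 357 and 371 TPM. Lef1 had 3 and 2.46 counts, Fos was at 1.504 and 1.83 TPM and Fosl1 at 33.5 and 39.4 TPM.

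Class I antigen presentation was uneven along its pathway, with 24 of 30 genes expressed but levels that ran from the top of the transcriptome to near 0. Calr, calreticulin, which holds class I chains in the endoplasmic reticulum, was at 1781 and 1784 TPM, and B2m, the invariant light chain, was at 596 and 598 TPM. The heavy chain genes H2-D1 and H2-K1 were each far lower. H2-D1 was at 36.7 and 36.97 TPM and H2-K1 at 9.35 and 9.47 TPM, so that B2m was 16.3 and 16.2 times H2-D1, and H2-D1 was 3.92 and 3.91 times H2-K1. Both heavy chain genes share reads with relatives, so the split between them and the ratio of B2m to H2-D1 are uncertain to that extent. The 14 chain genes of the list summed to 725 and 731 TPM, and 8 of them had counts that are not whole. Chain genes not reported by name held the part of that sum outside B2m, H2-D1 and H2-K1. Tapbp, tapasin, was at 98.9 and 98.6 TPM, but the peptide transporter genes were low, Tap1 at 2.66 and 2.498 TPM and Tap2 at 5.94 and 5.85 TPM. Of the 3 immunoproteasome subunits, Psmb10 was at 49.2 and 47.7 TPM while Psmb8 was at 0.969 and 1.42 TPM and Psmb9 at 0.482 and 0.551 TPM. Nlrc5, the transactivator of class I genes, had 3 and 6 counts, and Irf1 was at 36.7 and 36.5 TPM.

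The promoters of B2m and H2-K1 were printed for the same span as above, since the genes encode partners in 1 complex. Whether these letters bear on the levels of the genes was not tested. H2-K1 has 2 annotated starts, and the window of the first listed is given. That whole window also held a TATA motif, at base 36 from the start and so beyond the span printed. Capitals mark CCAAT boxes and the TATA motif on either strand. The TATA match of B2m is on the opposite strand, 152 bases before the start.
B2m, chr2:122147517-122147706, plus strand: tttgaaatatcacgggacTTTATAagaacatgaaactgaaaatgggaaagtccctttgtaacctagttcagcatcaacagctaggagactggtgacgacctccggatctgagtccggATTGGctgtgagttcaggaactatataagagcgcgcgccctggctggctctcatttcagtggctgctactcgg
H2-K1, chr17:34000328-34000517, minus strand: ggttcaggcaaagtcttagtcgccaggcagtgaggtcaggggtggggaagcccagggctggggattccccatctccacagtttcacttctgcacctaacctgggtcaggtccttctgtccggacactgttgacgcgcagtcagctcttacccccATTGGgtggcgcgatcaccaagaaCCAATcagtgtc

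Class II presentation genes were mostly at 0, and 2 were expressed. Of 15 genes, 8 had 0 counts in both libraries, among them H2-Ab1, H2-Eb1, Cd86 and Cd40, and Ciita, the master regulator, had 1 and 3 counts. H2-DMb1 was the highest at 3.98 and 3.09 TPM.

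**Figure D5:**
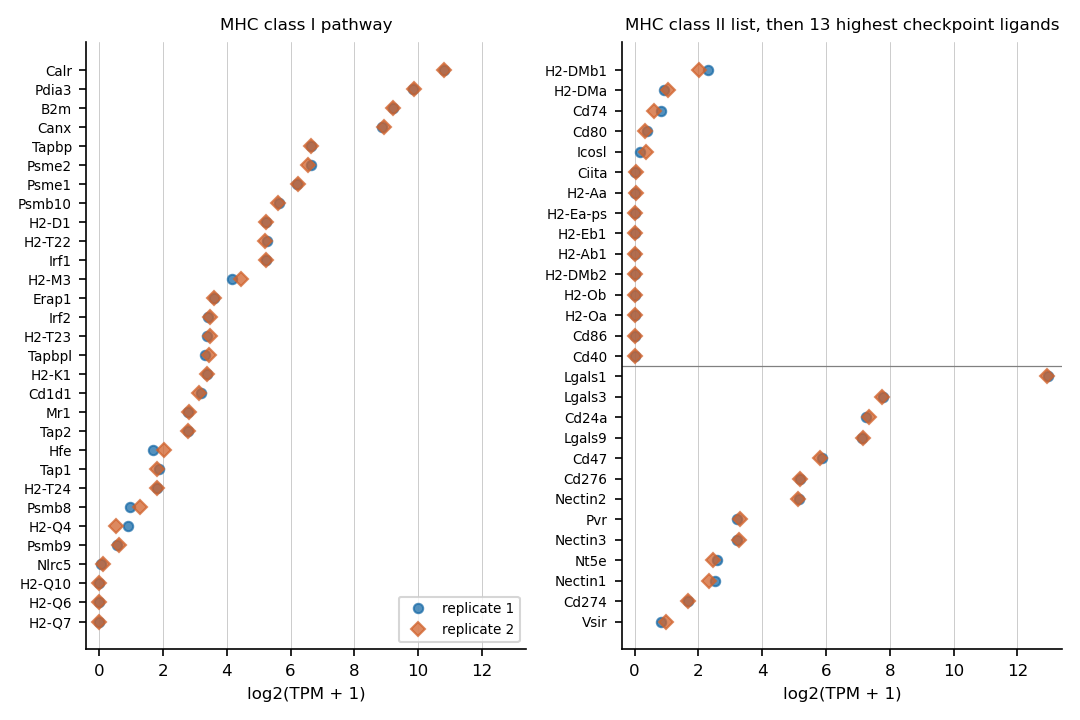
Level as log2(TPM + 1) of the class I pathway genes, at left, and of the class II list followed by the 13 highest checkpoint ligands, at right, with a circle for replicate 1 and a diamond for replicate 2. The class I panel falls from Calr to 3 heavy chain genes at 0, and the class II genes all lie below Cd276.

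Of 23 checkpoint ligand genes 13 were expressed. Together the 23 summed to 8706 and 8559 TPM, and 4 of them were among the 1000 highest protein-coding genes. Cd274, Cd276 and Cd47, given below, were lower than those 4 and held little of that sum. Of 9 ligands of natural killer cell receptors that were listed, only 5 could be matched by name, and 3 of those were expressed. The same list held 11 complement genes, of which 8 were expressed, and 4 leukocyte adhesion genes, all expressed. Cd274, which encodes PD-L1, was low at 2.17 and 2.17 TPM, rank 10714, and its relative Pdcd1lg2 had 0 counts. Cd276, B7-H3, was at 35.5 and 35.2 TPM and Cd47, which restrains phagocytosis, at 57.3 and 55.6 TPM. Ligands of the activating receptor NKG2D were present, with Raet1e at 40.7 and 37.9 TPM, Raet1d at 23.9 and 24.3 TPM and Ulbp1 at 17.1 and 18.4 TPM, the first 2 with shared reads. Vcam1, a leukocyte adhesion molecule, was at 65.4 and 69.2 TPM.

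Sensors of foreign nucleic acid were present while the inflammasome was incomplete. Tmem173, which encodes STING, was at 71.8 and 70.6 TPM and Cgas, the enzyme upstream of it, at 8.45 and 10.8 TPM. Mavs, the adaptor of the RNA sensors, was at 27.2 and 28.4 TPM and Ddx58, which encodes RIG-I, at 10.4 and 13.2 TPM. Tlr2 was at 22.1 and 22.1 TPM and Tlr4 at 11.1 and 13.6 TPM. Casp1 had 0 counts, Pycard had 1 and 1 counts and Nlrp3 had 1 and 1, whereas Gsdmd, the pore former downstream, was at 61.5 and 60.7 TPM. Of genes that interferon induces, Isg15 was at 25.8 and 30.1 TPM and Irf7 at 1.11 and 1.88 TPM.

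Cell cycle and tumour genes were almost all expressed, 60 of 62, and 1 tumour suppressor locus stood far above the others. Cdkn2a was at 1031 and 817 TPM, rank 98, 11.7 and 10.2 times its neighbour Cdkn2b and 40.4 and 29.5 times Trp53. The replicates differed by -0.36 on the log2 scale, replicate 2 over replicate 1, beyond the 95th percentile of 0.16 for genes of 100 to 1000 CPM. The locus encodes both p16Ink4a and p19Arf, which a gene-level count cannot separate. Rb1, which p16Ink4a acts through, was at 2.76 and 2.94 TPM, and its relatives Rbl1 at 14.9 and 16.1 TPM and Rbl2 at 19.1 and 18.2 TPM were higher. Trp53 was at 25.5 and 27.7 TPM and its target Cdkn1a, which encodes p21, at 4.28 and 5.06 TPM. Cdkn1c, a growth-restraining imprinted gene, had 0 counts. Myc was at 49.6 and 47.5 TPM and Mycn at 0.119 and 0.154 TPM. All 11 proliferation genes were expressed, with Pcna at 386 and 381 TPM and Mki67 at 126 and 145 TPM.

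Within families of paralogues a single member usually carried most of the RNA. Aldoa made up 99.1% and 98.9% of aldolase TPM, Ldha 98.3% and 98.2% of lactate dehydrogenase, and Slc2a1 96.5% and 96.04% of the 4 glucose transporters listed. Pkm, pyruvate kinase, ranked 44, and Pklr had 0 counts. Hk1 made up 72.6% and 72.4% of hexokinase and Hk2 27.03% and 27.1%. Vim made up 97.4% and 97.2% of the 10 intermediate filament genes listed, which include Krt8 and Krt18 but not the higher Krt19. Other families were shared, with Ccnd2 at 48.7% and 50.8% and Ccnd1 at 33.2% and 33.1% of cyclin D, and Nras at 51.97% and 51.9% of the Ras genes. Among annexins, Anxa1 was at 1039 and 1044 TPM, Anxa5 at 995 and 1009.9 TPM and Anxa2 at 993 and 989 TPM. Gapdh, often used as a reference gene, ranked 144 at 689 and 671 TPM, with reads shared with its pseudogenes.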

How the data were processed

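Poly(A) RNA of TRAMP-C2 cells was sequenced from 100 ng of total RNA with a stranded mRNA kit, and samples were grouped by their labels. The values the authors deposited are RSEM expected counts per gene. The submitters' processing notes name STAR 2.5.3a, RSEM 1.3.0 and GRCm38.p6, whereas the study's methods describe another counter. Annotation and strand setting are not given in the sources used here, so overlapping and antisense genes may share reads. RSEM divides reads that match several genes, which gave 8005 and 8097 values that are not whole (tolerance 1e-06).

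Names, coordinates and exon lengths came from GENCODE M21 on GRCm38. Of 54446 identifiers, 54409 matched. Symbols in the lists were matched for 1280 of 1285 genes, older names through RefSeq synonyms. CPM and TPM were computed from unrounded counts, and no gene was filtered. Pseudogenes were matched with blastn 2.17.0, and Python 3.11.15 with pandas 2.3.3 did the rest, tested on simulated counts and planted motifs.

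Genes named with values were the 20 highest, up to 5 of each list, defining members at the floor, leaders of paralogue families and genes that differed most between libraries. Other list members were named for their role, and a few genes that count in the lists are not reported here by name. The lists and genes were chosen with earlier results of these data known. Alternatives were other thresholds, lengths, pseudocounts and gene sets, and leaving out each library.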

Additional observations from a re-analysis of the deposited data

How the results depend on the processing

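No result changed direction under the alternatives run. The number of expressed genes ranged from 12324 to 13827 over the alternatives, and the count of expressed list genes from 740 to 818, all within 1.5 times. By list, 153 of 165 counts stayed within 1.5 times. The 12 others were in lists with at most 4 expressed genes: prostate basal, which went from 4 to 7 at 0.5 CPM or at 10 counts, neuroendocrine, which went from 3 to 5 there, endothelial, skeletal muscle, neural crest and MHC class II.

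The share of TPM in the 100 highest genes was 34.4%. It was 31.4% with the longest transcript as length, 19.4% of unscaled counts, 32.4% without mitochondrial genes, 30.4% over protein-coding genes and 34.6% with pseudogene counts given to the gene each resembled. The ribosomal protein share was 9.26% and in the same order 10.7%, 4.94%, 9.81%, 11.9% and 12.9%. The difference between the mesenchymal and epithelial medians was 6.61 on the log2 scale, 6.79 with the longest transcript, 9.03 and 3.53 with pseudocounts of 0.1 and 10, and 6.75 with pseudogene counts moved. Leaving out each library gave 34.4 to 34.6%, 8.93 to 9.58% and 6.56 to 6.66. The pseudogene alternative was chosen after seeing the data. No paired analysis was possible because the result comes from no test and holds 1 group.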

Other observations

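Imprinted genes were partly expressed, 15 of 20. Peg3, a zinc finger gene expressed from the paternal allele, was at 47.3 and 49.9 TPM, Ndn, necdin, at 37.2 and 34.7 TPM and Peg10, derived from a retrotransposon, at 31.2 and 34.3 TPM. H19 had 0 counts in both libraries, and Igf2, its neighbour in the same imprinted domain, had 11 and 8 counts. Meg3 was at 3.98 and 4.48 TPM and its domain partner Dlk1 at 4.96 and 4.297 TPM. Among noncoding RNAs, Gas5, the host of many small nucleolar RNAs, was at 119 and 120.2 TPM and Malat1 at 80.7 and 80.9 TPM. Hotair, transcribed from within the Hoxc cluster, had 0 counts, and Hottip, next to Hoxa13, was at 0.228 and 0.325 TPM.

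The Y chromosome was represented unevenly. Eif2s3y, a translation factor gene, was at 39.2 and 42.5 TPM, Kdm5d, a histone demethylase, at 9.42 and 10.4 TPM and Uty at 9.52 and 10.02 TPM. Usp9y, Sry, Zfy1 and Zfy2 had 0 counts. The X partners of the first 3, Eif2s3x, Kdm5c and Kdm6a, were higher, at 159 and 170.5, 54.8 and 56.5 and 13.8 and 15.5 TPM, and the counts of the 3 Y genes are not whole in at least 1 library, so some of their reads were shared.

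Few genes differed strongly between the 2 libraries, 27 by over 2 times among protein-coding genes of 1 to 10 CPM, 5 among those of 10 to 100 CPM and 0 among those of 100 to 1000 CPM. All 10 genes with the largest differences, at 100 counts or more in 1 library, had counts that are not whole. Gm26377, annotated as a miRNA gene inside the span of Eef1a1 on chromosome 9, had 0 and 2283 counts. Among protein-coding genes mt-Nd3 was at 4.67 and 39.01 CPM, Fyb, an adaptor of T cells and platelets, at 6.42 and 0.982 CPM, Tshz2 at 5.58 and 0.992 CPM and Sec61g, a subunit of the protein translocation channel, at 1.17 and 5.72 CPM. The others were the pseudogenes Gm5931, Gm6166, Rpl23a-ps3, Gm15429 and Pgam1-ps2. How far the division of shared reads took part in these differences was not tested.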
